A study of Mus musculus with 6 samples.

Results

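Calcium channels, TRP channels, bestrophins and anoctamins were examined in RNA from primary mouse retinal pigment epithelium (RPE), the pigmented layer that lies behind the photoreceptors and serves them. The genes were taken by symbol: the pore and accessory subunits of voltage-gated calcium channels (Cacna1, Cacna2d and Cacnb), the bestrophins (Best), anoctamins (Ano), ryanodine receptors (Ryr), inositol trisphosphate receptors (Itpr), the store-operated channel genes (Orai and Stim) and the Trpa, Trpc, Trpm and Trpv genes. This rule gave 61 of the 28043 genes in the tables, and 59 of them encode channels or channel subunits and sensors. The other 2, Itprid1 and Itprid2, match the symbol rule but encode proteins that bind inositol trisphosphate receptors. Trpa1, Trpc2, Trpc7, Trpm8 and Trpv5 were not analysed here.

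Calcium enters a cell through voltage-gated, TRP and store-operated channels, and leaves the endoplasmic reticulum through inositol trisphosphate and ryanodine receptors. STIM proteins sense the emptying of that store and open ORAI pores in the plasma membrane. Many bestrophins and anoctamins are anion channels opened by cytosolic calcium, and the RPE is known for calcium-dependent chloride and fluid transport and for voltage-gated calcium channels that take part in secretion.

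The comparison set 3 libraries of PVR mice against 3 libraries of Normal mice, PVR being traumatic proliferative vitreoretinopathy, a scarring disorder that can follow eye injury. All were polyadenylated RNA of primary RPE cells from mouse eyes. The labels give no strain, age, method of injury or time. They do not say that replicates came from separate animals, so the p-values reflect variation among these 6 samples alone, which may be technical. Values are normalised counts, meaning reads per gene after the authors' scaling of each library by a single factor, and appear as mean ± SD (n = 3 per group) or library by library. Log2 changes subtract Normal from PVR after 1 is added to each normalised count, so changes of weakly expressed genes are understated.

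The libraries held 15269983 to 17775427 assigned reads in PVR and 15929388 to 19173187 in Normal, and 3 reads, the level that a count of 0 allows, correspond to 2.72 to 3.42 normalised counts. This floor covers counting error only, since no molecular identifiers are recorded and reads may repeat a molecule. Of 14 RPE markers that exclude the channels, 9 fell and 0 rose in PVR, and their summed level was 632640 to 698820 normalised counts in PVR and 903610 to 985960 in Normal. Of 16 macrophage and microglia markers, 15 rose and 1, Csf1r, fell. Their summed level was 37073 to 86974 in PVR and 10919 to 12310 in Normal, and none was at 0 in the 6 libraries. Most of the Normal sum was Csf1r, with 9343, 9591 and 11181 in Normal libraries 1 to 3. Csf1r had 6367, 7575 and 8235 in PVR libraries 1 to 3. The sums therefore understate the rise of the other markers, and the list's median log2 change was 4.41. Among PVR libraries the macrophage and microglia sum was highest in library 2 and lowest in library 3. In addition 8 of 9 fibroblast markers rose, with a sum of 24006, 26517 and 17209 in PVR libraries 1 to 3, against 5150.2, 4996 and 3011 in Normal libraries 1 to 3. In such bulk RNA, fewer cells of a type and less RNA per cell cannot be told apart.

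In PVR 17 of the 43 tested members changed, all of them channel genes, and within the Cacna2d, Ano, Itpr, Orai, Trpm and Trpv families members went both ways. Trpm2, Trpv2, Orai2, Orai1, Cacnb3, Cacna2d1, Trpm5, Itpr2 and Ano6 rose, whereas Itpr1, Cacna1c, Cacna2d2, Trpv4, Ano5, Trpm6, Ryr3 and Orai3 fell. The test was limma over all 15766 genes with enough reads, with Benjamini-Hochberg adjustment and a threshold of 0.05. The 9 that rose were 20.9% of the tested members, beside 17.9% of all genes tested, and the 8 that fell were 18.6%, beside 12.9%. Together 39.5% were called, beside 30.8% of all genes. These shares lie near the background, so nothing about the members is read from the counts. The PVR and Normal values did not overlap for 23 of the 43 (53.5%, beside 48.0% of all genes): 11 lay higher, beside 24.7% of all genes, and 12 lower, beside 23.3%. The median log2 change was -0.048 over the tested members and -0.017 over all genes. Of the genes that rose 6 passed 2-fold, as did 4 of those that fell.

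**Figure D1:**
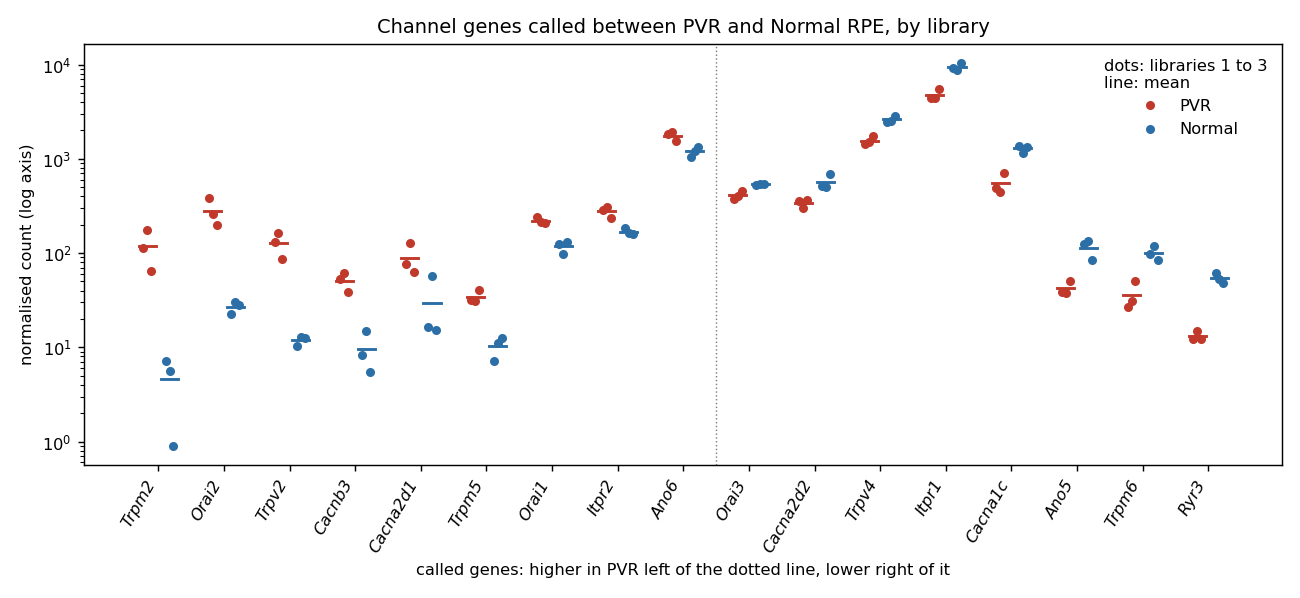
Normalised count on a log axis of each of the 17 called channel genes, with PVR libraries (red) to the left of Normal libraries (blue) and a line at each mean. The 3 PVR values of every gene shown lie wholly on one side of the 3 Normal values, and Trpm2 has the widest gap, from 65.2 to 178 in PVR beside 0.906 to 7.21 in Normal.

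Of the 3 inositol trisphosphate receptor genes 1 fell and 1 rose, beside 12.9% lower and 17.9% higher among all genes tested. Itpr1, the most abundant inositol trisphosphate receptor gene here (chromosome 6, 108213096 to 108551109 on GRCm38), fell. Its values were 4384, 4477 and 5541 in PVR libraries 1 to 3, against 9116, 8786 and 10375 in Normal libraries 1 to 3, so every PVR library lay well below every Normal library (log2 change -0.98 with an SE of 0.12, limma adjusted p = 0.000464). Itpr2, a second receptor isoform (chromosome 6, 146108299 to 146502223), rose. It had 285, 312 and 238 in PVR libraries 1 to 3, against 182, 163 and 159 in Normal libraries 1 to 3, again without overlap (log2 change 0.72 with an SE of 0.16, limma adjusted p = 0.00746). Itpr3, the third isoform, did not pass the test (279.8 ± 41.7 in PVR and 335 ± 36.4 in Normal, log2 change -0.26, limma adjusted p = 0.232).

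Levels are compared between genes per kilobase of merged exon in GENCODE M21. On that scale the share of Itpr1 in the summed level of the 3 receptor genes was 83.8% ± 3.41 in PVR, against 91.3% ± 1.37 in Normal. The share of Itpr2 was 6.11% ± 1.26 in PVR, against 2.03% ± 0.249 in Normal, and that of Itpr3 was 10.1% ± 2.15 in PVR, against 6.64% ± 1.17 in Normal. The summed level itself, in normalised counts per kilobase, was 312 ± 29.3 in PVR and 563 ± 41.4 in Normal. Itprid2, which encodes a receptor-binding protein, did not pass the test (4273 ± 119 in PVR and 4914 ± 546 in Normal, log2 change -0.20, limma adjusted p = 0.203), although its PVR values lay below its Normal values. Itpr1 has 289 exon bases in common with 2 unnamed gene models on the opposite strand, which averaged at most 5.22 normalised counts in PVR and 8.53 in Normal.

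Ryanodine receptors were scarce. Ryr3 (chromosome 2, 112631355 to 113217096), the isoform best known outside skeletal and heart muscle, fell, with 12.4, 14.8 and 12.3 in PVR libraries 1 to 3, against 61.8, 52.8 and 48.0 in Normal libraries 1 to 3 (log2 change -1.96 with an SE of 0.32, limma adjusted p = 0.00145). The reads behind these values were few, with 12, 13 and 13 reads in PVR libraries 1 to 3, against 60, 57 and 53 reads in Normal libraries 1 to 3. Ryr3 shares 916 exon bases with Aven on the opposite strand, and whether the counting used strand is not given in the sources used here. Aven itself averaged 177 ± 28.1 in PVR and 215 ± 18.7 in Normal and did not pass the test (limma adjusted p = 0.235). Ryr1, the skeletal muscle isoform, had 8, 5 and 6 reads in PVR libraries 1 to 3, against 3, 4 and 3 reads in Normal libraries 1 to 3. Ryr2, the heart isoform, had 4, 4 and 3 reads in PVR libraries 1 to 3, against 0, 13 and 0 reads in Normal libraries 1 to 3, so its Normal reads came from 1 library. Neither passed the filter on low counts. Of 9 skeletal muscle markers in the data, 1 passed the filter on low counts and it was not called.

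Of the store-operated channel genes, all 3 Orai pore genes were called and neither Stim sensor gene was, beside 30.8% of all genes tested. Orai2, a pore-forming homologue known from immune cells (chromosome 5, 136147459 to 136170713), rose most. It had 388, 259 and 200.2 in PVR libraries 1 to 3, against 22.7, 30.6 and 28.1 in Normal libraries 1 to 3, so the lowest PVR library lay far above the highest Normal one (log2 change 3.29 with an SE of 0.28, limma adjusted p = 7.18e-05). Orai1, which encodes the main pore of the channel (chromosome 5, 123015074 to 123030456), also rose, with 239.9, 212 and 209.7 in PVR libraries 1 to 3, against 126, 97.2 and 129.6 in Normal libraries 1 to 3 and no overlap (log2 change 0.91 with an SE of 0.18, limma adjusted p = 0.00408). Orai3, a further pore homologue (chromosome 7, 127769815 to 127775150), fell. It had 379, 402 and 452 in PVR libraries 1 to 3, against 529, 541 and 541 in Normal libraries 1 to 3 (log2 change -0.39 with an SE of 0.11, limma adjusted p = 0.0287). The call was lost in 9 of 18 alternatives, 5 of which left out 1 library, either any Normal library or PVR library 1 or 2 (limma adjusted p from 0.0693 to 0.0869).

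The sensors Stim2 (2196 ± 46.7 in PVR and 2284 ± 326 in Normal) and Stim1 (1789.8 ± 159 in PVR and 1877 ± 199 in Normal) did not pass the test, with limma adjusted p of 0.791 and 0.699, and their signs turned when single libraries were left out. Per kilobase, the share of Orai3 in the summed Orai level was 57.5% ± 5.89 in PVR, against 81.9% ± 2.04 in Normal. The share of Orai1 was 28.7% ± 1.52 in PVR, against 16.7% ± 2.22 in Normal. That of Orai2 was 13.8% ± 4.37 in PVR, against 1.46% ± 0.228 in Normal, and it ranked PVR library 1 highest and library 3 lowest. The summed Orai level was 335 ± 11.4 in PVR and 306 ± 6.95 in Normal per kilobase, and the Stim split did not move in the same way, with Stim2 at 71.3% ± 1.42 in PVR, against 71.0% ± 1.70 in Normal. The macrophage markers given above rose in the same PVR libraries, and their part in the rise of Orai2 and Orai1 was not tested.

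**Figure D2:**
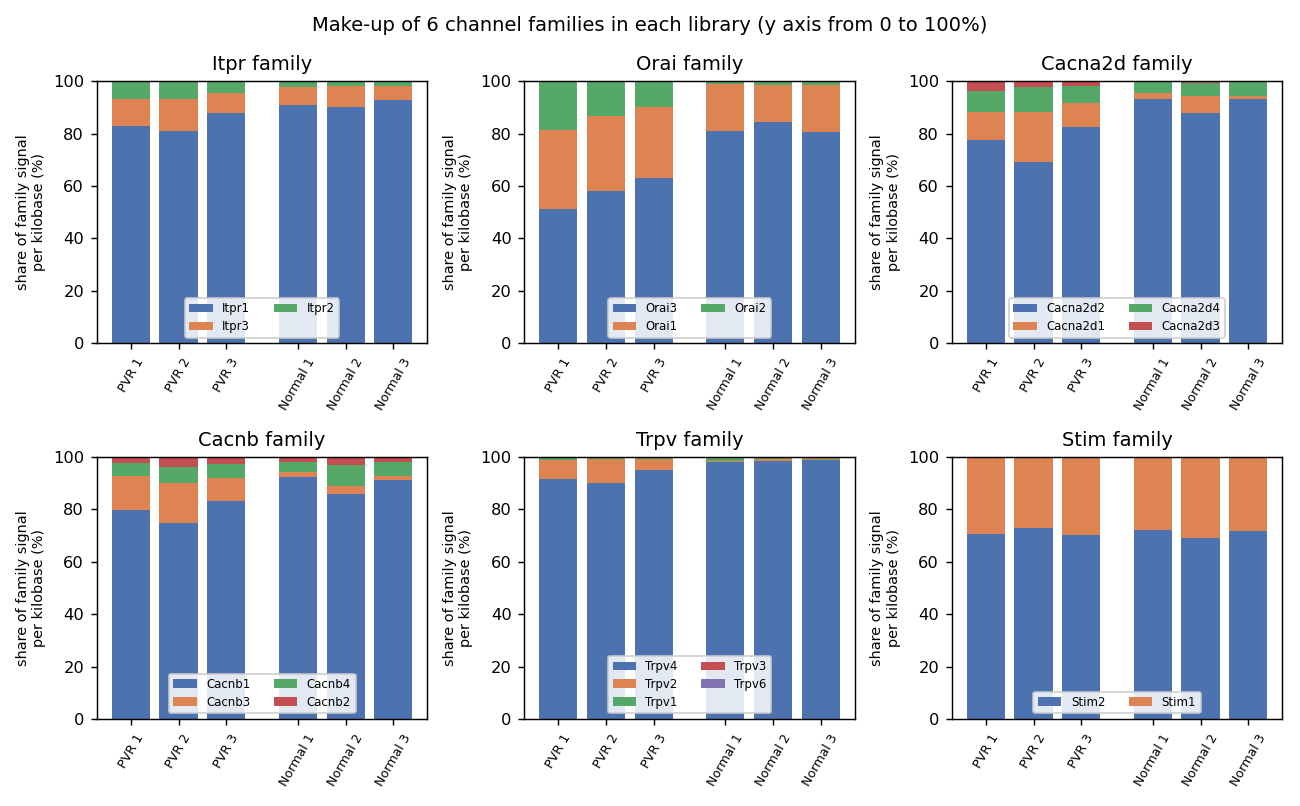
Share of each member in its family's summed level per kilobase (y axis, percent from 0 to 100) for 6 families, with PVR libraries left of Normal libraries. Orai3 takes 51.2% to 63.0% of the Orai level in PVR and 80.5% to 84.2% in Normal, while Stim2 stays between 69.1% and 72.9% in all 6 libraries.

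The promoters of the most raised store-operated gene, of a raised TRP gene and of a TRP gene that fell are shown because the series title names NFATc1, a calcium-responsive factor whose core motif can be searched for. They run from 250 bases before to 50 bases after the start, 5′ to 3′ on the gene's strand, from RefSeq on GRCm38.p6. Capitals mark the letters GGAAA, or TTTCC where the match is on the opposite strand.
Orai2, chr5:136170607-136170906, minus strand: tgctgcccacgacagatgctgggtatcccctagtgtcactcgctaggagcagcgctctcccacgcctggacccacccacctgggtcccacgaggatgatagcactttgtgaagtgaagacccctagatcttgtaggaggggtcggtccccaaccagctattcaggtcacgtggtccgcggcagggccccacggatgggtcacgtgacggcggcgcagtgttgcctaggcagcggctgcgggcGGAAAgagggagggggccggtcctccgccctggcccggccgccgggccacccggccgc
Trpm2, chr10:77969823-77970122, minus strand: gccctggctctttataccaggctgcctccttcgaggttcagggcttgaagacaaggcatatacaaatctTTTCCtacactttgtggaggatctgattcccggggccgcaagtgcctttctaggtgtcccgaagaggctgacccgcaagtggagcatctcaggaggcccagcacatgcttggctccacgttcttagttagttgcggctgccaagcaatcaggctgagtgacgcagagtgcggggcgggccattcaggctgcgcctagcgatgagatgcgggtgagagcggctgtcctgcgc
Trpv4, chr5:114658372-114658671, minus strand: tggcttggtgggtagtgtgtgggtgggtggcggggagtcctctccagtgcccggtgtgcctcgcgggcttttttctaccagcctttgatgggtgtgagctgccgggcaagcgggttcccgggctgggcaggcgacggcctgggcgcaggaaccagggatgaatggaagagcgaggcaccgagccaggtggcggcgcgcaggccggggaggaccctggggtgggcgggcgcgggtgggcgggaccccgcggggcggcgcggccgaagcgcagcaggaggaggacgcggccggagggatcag
The windows of Orai2 and Trpm2 hold 1 match each and that of Trpv4 holds 0. This split does not hold across the called genes. Among the others that rose, Ano6, Cacnb3, Trpm5 and a window of Trpv2 hold matches, and Orai1, Itpr2 and Cacna2d1 hold 0. Among the others that fell, Orai3, Ano5, Trpm6 and windows of Cacna1c hold matches, and Cacna2d2 holds 0. For Itpr1 and Ryr3, which also fell, no window was found. In all 31 of 64 promoter windows found for 49 of the member genes hold GGAAA on either strand, beside 61.5% of 32544 windows of the same length. The Orai2 window also holds 2 copies of the E-box CACGTG, a palindrome counted once per site, which 7.17% of all windows contain. The Trpm2 window has none of these but 1 copy of CATGTG on the opposite strand, which reads CACATG in the letters shown. A copy on either strand is present in 14.2% of all windows. GAGGAA, a motif of myeloid ETS factors that contains GGAAA when an A follows it, is in none of the 3 windows shown and in 28.1% of all. A match or its absence in these letters describes the window alone.

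Voltage-gated calcium channel genes of the L type were led by Cacna1c, which encodes the pore of Cav1.2 (chromosome 6, 118587240 to 119196418) and fell. It had 490.1, 442 and 713 in PVR libraries 1 to 3, against 1384, 1165 and 1352 in Normal libraries 1 to 3 (log2 change -1.27 with an SE of 0.17, limma adjusted p = 0.000771). PVR library 3 was the highest of its group and still far below every Normal library. Cacna1d, the gene of the Cav1.3 pore long studied in RPE, did not pass the test (286 ± 46.2 in PVR and 368 ± 74.1 in Normal, log2 change -0.36, limma adjusted p = 0.159). Cacna1f, which encodes the Cav1.4 pore of photoreceptor synapses, had 19.6, 23.9 and 30.2 in PVR libraries 1 to 3, against 6.18, 19.4 and 7.25 in Normal libraries 1 to 3. Its PVR values all lay above its Normal values, but by little over Normal library 2, and it was not called (log2 change 1.24, limma adjusted p = 0.0843). Without Normal library 2 it was (limma adjusted p = 0.0236). Of 13 tested photoreceptor markers 1, Rom1, fell and 0 rose, while the list's median log2 change was 0.72. Without Rom1, which averaged 2063 in PVR and 4118 in Normal, the list summed to 755, 1573 and 1385.5 in PVR libraries 1 to 3, against 625, 1571 and 885 in Normal libraries 1 to 3. The part of photoreceptor transcripts in the Cacna1f level was not tested.

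The T-type pore genes Cacna1h (266 ± 50.9 in PVR and 369 ± 177 in Normal) and Cacna1g (110.3 ± 30.2 in PVR and 86.7 ± 28.0 in Normal) and the P/Q-type gene Cacna1a (70.5 ± 33.8 in PVR and 60.4 ± 12.9 in Normal) overlapped between groups and were not called. Of 6 tested pore genes 1 fell and none rose, beside 12.9% lower and 17.9% higher among all genes tested. Per kilobase the summed level of all 10 pore genes was 97.6 ± 9.80 in PVR and 145 ± 14.7 in Normal, and the share of Cacna1c in it was 26.2% ± 4.16 in PVR, against 42.7% ± 6.15 in Normal. Cacna1s, the skeletal muscle pore, had 4.12, 7.97 and 9.44 in PVR libraries 1 to 3, against 9.28, 6.48 and 10.9 in Normal libraries 1 to 3, below the filter on low counts.

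Of 7 tested accessory subunit genes 2 rose and 1 fell, beside 17.9% higher and 12.9% lower among all genes tested. Cacna2d2, the most abundant gene of the alpha-2-delta subunits that bring the pore to the membrane (chromosome 9, 107399612 to 107529343), fell, with 357, 301 and 368 in PVR libraries 1 to 3, against 512, 508 and 692 in Normal libraries 1 to 3 (log2 change -0.73 with an SE of 0.15, limma adjusted p = 0.00593). Cacna2d1, a binding target of gabapentin (chromosome 5, 15934691 to 16374511), rose. It had 77.2, 129 and 62.3 in PVR libraries 1 to 3, against 16.5, 56.5 and 15.4 in Normal libraries 1 to 3, with Normal library 2 far above the other Normal libraries and just below the lowest PVR library (log2 change 1.76 with an SE of 0.51, limma adjusted p = 0.0303). Without Normal library 2 its log2 change was 2.35. The call was lost in 7 of 18 alternatives, among them without Normal library 1 or 3, without PVR library 1 or 2, and by the quasi-likelihood test of edgeR (adjusted p = 0.0597). Cacna2d4, which photoreceptors use, was not called (log2 change 0.22, limma adjusted p = 0.635).

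Cacnb3, which encodes a cytosolic beta subunit (chromosome 15, 98630840 to 98644529), rose. It had 52.5, 61.5 and 38.7 in PVR libraries 1 to 3, against 8.25, 14.8 and 5.44 in Normal libraries 1 to 3, and the groups lay far apart (log2 change 2.38 with an SE of 0.43, limma adjusted p = 0.00259). The leading beta subunit gene, Cacnb1, did not pass the test (372 ± 35.6 in PVR and 445 ± 45.5 in Normal, log2 change -0.26, limma adjusted p = 0.171), nor did Cacnb4 or Cacnb2, whose log2 changes were -0.048 and 0.21. The share of Cacnb3 in the summed beta subunit level per kilobase was 12.3% ± 3.23 in PVR, against 2.11% ± 0.879 in Normal. Macrophage and fibroblast markers rose in the same libraries, and their part in the rise of Cacna2d1 and Cacnb3 was not tested. Among PVR libraries Cacnb3 was highest in library 2 and lowest in library 3, the order of both the macrophage sum and the fibroblast sum.

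**Figure D3:**
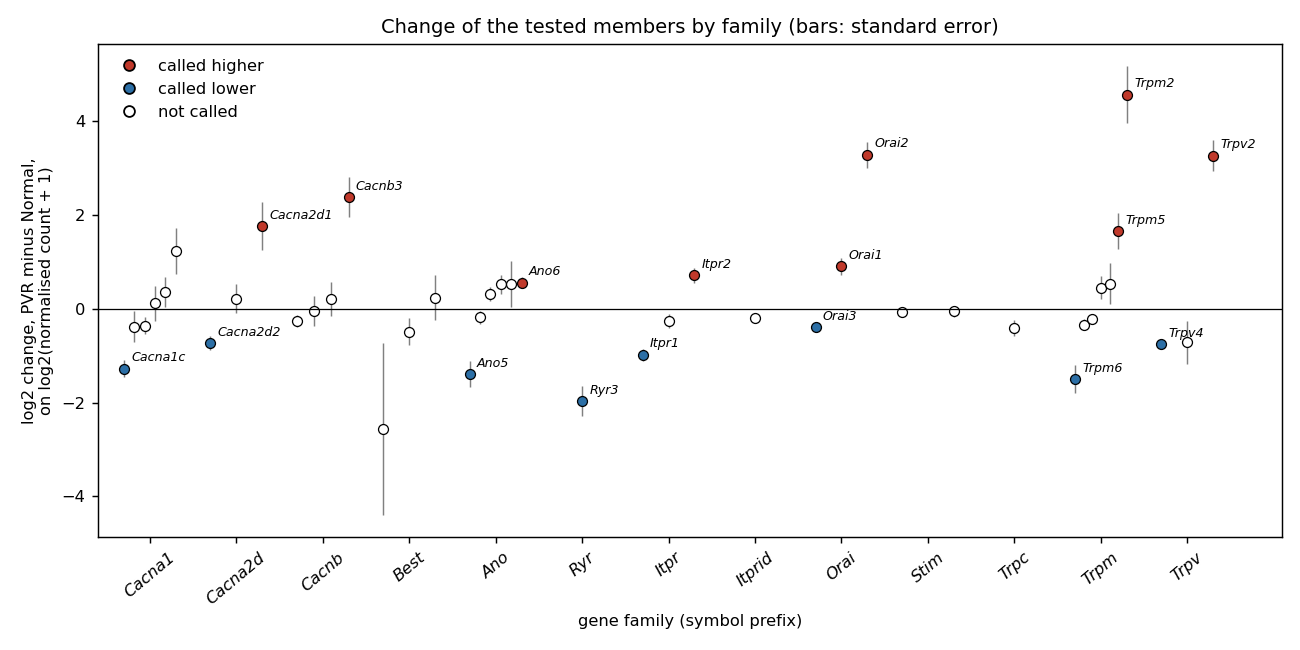
Log2 change, PVR minus Normal, of the 43 tested genes by family, with the standard error of the fit as bars and called genes filled. Changes run from 4.57 for Trpm2 down to -2.55 for Best2, which has a standard error of 1.83 and is not called.

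The TRPM family held the most abundant gene of the members. Trpm3, a heat- and steroid-sensitive cation channel (chromosome 19, 22139046 to 22995410), ranked 306 per kilobase among the 27362 genes with an annotated length. It had 37567, 40690.0 and 42157 in PVR libraries 1 to 3, against 54903, 52062 and 45254 in Normal libraries 1 to 3, so its PVR values lay below its Normal values. The change missed the threshold (log2 change -0.34 with an SE of 0.12, limma adjusted p = 0.0576). It was called when scaled to library totals (limma adjusted p = 0.0369), by DESeq2 (0.023), without a filter on low counts (0.0188), without Normal library 3 (0.0351) and with replicates 1 and 2 only (0.031), and its adjusted p reached 0.195 elsewhere.

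Trpm1, the transduction channel of ON bipolar cells, also made by pigment cells (chromosome 7, 64153835 to 64269775), varied widely within groups. It had 2438, 1979.5 and 3204 in PVR libraries 1 to 3, against 944, 2759 and 1939 in Normal libraries 1 to 3, and with Normal library 1 lowest and Normal library 2 second highest of all 6 the groups overlapped (log2 change 0.54, limma adjusted p = 0.407). Grm6, which encodes the receptor that acts on this channel in bipolar cells, averaged 1.35 in PVR and 0.302 in Normal, below the level of 3 reads. Of 7 melanocyte markers, some of which RPE also makes, 3 rose (Ednrb, Mlana and Dct) and 2 fell (Kit and Sox10). Their sum was 41540 to 50633 in PVR and 28115 to 37013 in Normal. The largest part of it was Dct (30329 ± 3872 in PVR and 16674 ± 3165 in Normal). The part of melanocyte transcripts in the Trpm1 level was not tested.

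Trpm3 and Trpm1 each contain an intronic microRNA on their own strand, Mir204 and Mir211. Their mature 5p arms from RefSeq (GRCm38.p6) are shown because they share a seed, bases 2 to 8, in capitals.
mmu-miR-204-5p, chr19:22750610-22750631, plus strand, in Trpm3: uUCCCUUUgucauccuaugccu
mmu-miR-211-5p, chr7:64205831-64205852, plus strand, in Trpm1: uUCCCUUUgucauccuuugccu
The arms are 22 bases long and have 21 bases in common, the difference being A17U, from miR-204-5p to miR-211-5p, counted from the 5′ end. The levels above are those of the host transcripts, and the microRNAs were not measured in these libraries of polyadenylated RNA. Per kilobase Trpm3 stood at 1642 in PVR and 2076 in Normal and Trpm1 at 172 in PVR and 128 in Normal.

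Trpm7, an ion channel fused to a kinase, came next to Trpm3 per kilobase and was not called, although its groups did not overlap (3279 ± 227 in PVR and 3826 ± 119 in Normal, log2 change -0.22, limma adjusted p = 0.114). Its relative Trpm6, a magnesium channel with a kinase domain (chromosome 19, 18749983 to 18892511), fell. Its values were 26.8, 30.8 and 51.0 in PVR libraries 1 to 3, against 98.9, 119 and 85.2 in Normal libraries 1 to 3 (log2 change -1.50 with an SE of 0.30, limma adjusted p = 0.00486). Trpm2, opened by ADP-ribose and oxidative stress and abundant in phagocytes (chromosome 10, 77907722 to 77970563), rose the most of the tested members. It had 114, 178 and 65.2 in PVR libraries 1 to 3, against 7.21, 5.56 and 0.906 in Normal libraries 1 to 3 (log2 change 4.57 with an SE of 0.60, limma adjusted p = 0.000658), from 111, 156 and 69 reads in PVR libraries 1 to 3, against 7, 6 and 1 reads in Normal libraries 1 to 3. Normal library 3 had 1 read. The log2 change was 3.92 without that library, and 3.66 with a pseudocount of 5. Trpm5, a calcium-activated monovalent cation channel of taste cells (chromosome 7, 143069153 to 143094642), rose at a low level, with 31.9, 30.8 and 40.6 in PVR libraries 1 to 3, against 7.21, 11.1 and 12.7 in Normal libraries 1 to 3 (log2 change 1.67 with an SE of 0.38, limma adjusted p = 0.00896). It shares 220 exon bases with Tssc4 on the opposite strand, which averaged 454 ± 71.1 in PVR and 401 ± 29.0 in Normal and did not pass the test (limma adjusted p = 0.402). The related Trpm4 was not called (104 ± 23.8 in PVR and 75.2 ± 14.6 in Normal, log2 change 0.46, limma adjusted p = 0.201).

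Among TRPV genes, Trpv4, an osmotically and mechanically sensitive channel present in RPE (chromosome 5, 114622152 to 114658421), dominated and fell. It had 1452, 1493 and 1742 in PVR libraries 1 to 3, against 2468, 2523 and 2879 in Normal libraries 1 to 3, without overlap (log2 change -0.75 with an SE of 0.11, limma adjusted p = 0.001). Trpv2, a channel known from macrophages and other leukocytes (chromosome 11, 62574486 to 62600515), rose. It had 132, 164 and 86.9 in PVR libraries 1 to 3, against 10.3, 12.96 and 12.7 in Normal libraries 1 to 3, so the lowest PVR library lay far above the highest Normal library (log2 change 3.27 with an SE of 0.32, limma adjusted p = 0.000143). Trpv1, the capsaicin receptor, was not called (11.3 ± 1.77 in PVR and 20.8 ± 11.4 in Normal, log2 change -0.71, limma adjusted p = 0.275), although its PVR values lay below its Normal values. The gap was slight, with 13.4 in PVR library 1 beside 13.9 in Normal library 2, and Normal library 1 stood apart at 34.0. Per kilobase the share of Trpv4 in the TRPV level was 92.1% ± 2.47 in PVR, against 98.5% ± 0.414 in Normal. The share of Trpv2 was 6.95% ± 2.40 in PVR, against 0.409% ± 0.0456 in Normal. Among PVR libraries, Trpm2 and Trpv2 were highest in library 2 and lowest in library 3, as the summed macrophage and the summed fibroblast markers were. Itpr2 and Ano6 had the same order, whereas Trpm5 was highest in library 3 and lowest in library 2. The part of macrophage or fibroblast transcripts in the rise of Trpm2, Trpv2, Trpm5, Itpr2 and Ano6 was not tested. The 9 RPE markers that fell did so in the libraries in which Trpv4, Itpr1, Cacna1c, Cacna2d2, Ano5, Trpm6, Ryr3 and Orai3 fell, and their part was not tested either.

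Of the canonical TRPC genes 1 passed the filter on low counts. Trpc1, a subunit of receptor-operated cation channels (chromosome 9, 95705082 to 95750375), had 294, 263 and 299 in PVR libraries 1 to 3, against 410.2, 297 and 442 in Normal libraries 1 to 3, and Normal library 2 lay within the PVR range. It was not called (log2 change -0.40 with an SE of 0.17, limma adjusted p = 0.0936), but it was with the replicate number as a block (limma adjusted p = 0.048), when scaled to library totals (0.0425), without Normal library 2 (0.0229) and without Normal library 2 and PVR library 3 (0.0302). Trpc4, Trpc5 and Trpc6 had at most 10.3 normalised counts in any library.

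Bestrophins were low and none passed the test. Best1, the anion channel gene named for the RPE disease vitelliform macular dystrophy (chromosome 19, 9985174 to 10001633), had 16.5, 22.8 and 7.56 in PVR libraries 1 to 3, against 10.3, 12.0 and 13.6 in Normal libraries 1 to 3 (log2 change 0.24 with an SE of 0.49, limma adjusted p = 0.743). It was counted from 16, 20 and 8 reads in PVR libraries 1 to 3, against 10, 13 and 15 reads in Normal libraries 1 to 3, and its rank per kilobase was 16274, although the RPE markers of the list averaged at least 979.6 normalised counts in each group. Best1 shares no exon bases with another gene of the tables in GENCODE M21, and the annotation that the authors counted against is not given in the sources used here. Best2, known from the non-pigmented ciliary epithelium, had 0, 19.4 and 3.78 in PVR libraries 1 to 3, against 3.09, 251 and 18.1 in Normal libraries 1 to 3. Normal library 2 stood alone, and without it the log2 change was -0.94 in place of -2.55. It was not called (limma adjusted p = 0.349), and with the replicate number as a block it was (0.0062). Best3 had 37.1, 38.7 and 64.2 in PVR libraries 1 to 3, against 63.9, 59.3 and 68.0 in Normal libraries 1 to 3 and was not called (log2 change -0.48, limma adjusted p = 0.237), with PVR library 3 inside the Normal range.

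Anoctamins were carried by Ano10, Ano6 and Ano8. Ano6, which encodes a calcium-activated phospholipid scramblase and ion channel (chromosome 15, 95790843 to 95974751), rose. It had 1823, 1915 and 1558 in PVR libraries 1 to 3, against 1048, 1207 and 1339.5 in Normal libraries 1 to 3 (log2 change 0.56 with an SE of 0.12, limma adjusted p = 0.00783). Ano5, mutated in human muscular dystrophies (chromosome 7, 51511029 to 51598709), fell, with 39.1, 37.6 and 51.0 in PVR libraries 1 to 3, against 125, 134 and 84.3 in Normal libraries 1 to 3 and no overlap (log2 change -1.39 with an SE of 0.27, limma adjusted p = 0.00377). Ano1, the classical calcium-activated chloride channel, had 150.3, 166 and 139 in PVR libraries 1 to 3, against 129, 103 and 87.9 in Normal libraries 1 to 3. Its PVR values lay above its Normal values, but the change was not called (log2 change 0.52, limma adjusted p = 0.0798). Ano10, mutated in a human ataxia, was not called (1263 ± 107 in PVR and 1022 ± 198 in Normal, log2 change 0.32, limma adjusted p = 0.126), but was with the replicate number as a block (limma adjusted p = 0.0491) and without Normal library 3 (0.0408). Ano8 (745 ± 33.2 in PVR and 854 ± 147 in Normal) and Ano7 (19.5 ± 7.48 in PVR and 13.5 ± 6.79 in Normal) were not called. The summed anoctamin level per kilobase was 508 ± 20.8 in PVR and 431 ± 43.0 in Normal.

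The other 18 members were removed by the filter on low counts, with at most 53.5 normalised counts in any library. Ano3 had 7, 47 and 17 reads in PVR libraries 1 to 3, against 0, 0 and 1 reads in Normal libraries 1 to 3, and Ano2, a chloride channel of photoreceptors and olfactory neurons, had 8, 20 and 19 reads in PVR libraries 1 to 3, against 0, 2 and 4 reads in Normal libraries 1 to 3. Cacna2d3 had 19, 9 and 9 reads in PVR libraries 1 to 3, against 2, 4 and 2 reads in Normal libraries 1 to 3. Trpc6 had 2, 9 and 5 reads in PVR libraries 1 to 3, against 0, 1 and 0 reads in Normal libraries 1 to 3. No Normal library had over 4 reads for any of them. Without a filter on low counts these 4 were called higher, with limma adjusted p from 0.000289 for Ano3 to 0.0399 for Trpc6 (13 members higher and 8 lower in all). Cacna1i, Itprid1 and Trpc4 had 0 reads in every Normal library and at most 4 in any PVR library.

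Genes that work beside these channels were taken from 9 lists. Of 15 tested calcium pump and exchanger genes 7 rose and 1, Slc24a1, fell (15247 ± 1825 in PVR and 19966 ± 1395 in Normal). Among those that rose were the sodium-calcium exchanger genes Slc8a1, which averaged 361 ± 177 in PVR and 20.8 ± 11.9 in Normal (log2 change 4.07, limma adjusted p = 0.000501), and Slc8a3, which averaged 202 ± 51.3 in PVR and 60.1 ± 10.3 in Normal. The mitochondrial exchanger gene Slc8b1 also rose (365 ± 122 in PVR and 115 ± 13.3 in Normal), and the exchanger gene Slc8a2 did not pass the test (31.8 ± 5.05 in PVR and 29.2 ± 1.26 in Normal, log2 change 0.11, limma adjusted p = 0.819). Of 15 genes of TRP relatives and endolysosomal channels, 9 rose and 1 fell. Piezo1, a mechanically gated channel, had 6267, 5856 and 5672 in PVR libraries 1 to 3, against 1645, 1528 and 2039 in Normal libraries 1 to 3 (log2 change 1.78 with an SE of 0.12, limma adjusted p = 2.89e-05). The ATP-gated channel gene P2rx4 averaged 439 ± 174 in PVR and 23.8 ± 9.98 in Normal, and the mucolipin gene Mcoln3 77.0 ± 33.1 in PVR and 2.28 ± 2.10 in Normal.

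The inositol trisphosphate list had 4 of 18 higher and 2 lower. Its smallest p-values belonged to the phospholipase-like gene Plcl2 (135 ± 73.5 in PVR and 2.51 ± 0.969 in Normal), the phospholipase gene Plcb2 (95.7 ± 39.9 in PVR and 4.21 ± 2.22 in Normal) and the G protein gene Gna15 (52.5 ± 31.2 in PVR and 1.64 ± 1.26 in Normal). Plcb2 and Gna15 are known from blood cells. Among 15 store and release partners, 6 rose and 3 fell, led by the receptor-interacting genes Itpripl2 (811 ± 105 in PVR and 255 ± 18.6 in Normal), Itprip (156 ± 41.9 in PVR and 25.7 ± 8.38 in Normal) and Itpripl1 (66.8 ± 23.4 in PVR and 8.90 ± 0.642 in Normal). The 12 partners of voltage-gated channels had 3 higher and 2 lower. Stac2 (30.7 ± 12.3 in PVR and 3.10 ± 1.86 in Normal) and Rrad (46.4 ± 12.5 in PVR and 10.1 ± 3.88 in Normal) rose, and the calcium-binding protein gene Cabp1 fell (14.6 ± 2.82 in PVR and 48.0 ± 10.5 in Normal).

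Of 8 store-operated entry partners 1 rose, the membrane tether gene Esyt1 (901 ± 127 in PVR and 250.4 ± 17.3 in Normal). Among 11 mitochondrial uptake genes Mcub, a dominant-negative pore subunit, rose (36.7 ± 9.09 in PVR and 3.52 ± 0.721 in Normal), while Micu3 (294 ± 15.5 in PVR and 438 ± 59.9 in Normal) and Smdt1 (1431 ± 217 in PVR and 1861 ± 94.1 in Normal) fell. Other chloride and volume channels had 8 of 22 higher and 4 lower, with Clic1 (864 ± 214 in PVR and 249 ± 16.1 in Normal) and the volume channel subunit gene Lrrc8c (185 ± 90.1 in PVR and 21.3 ± 9.90 in Normal) higher and Ttyh1 (516 ± 61.7 in PVR and 969.9 ± 93.9 in Normal) lower. Of 15 cytosolic sensors and buffers, 10 rose and 2 fell, and the kinase genes Camk1d (147 ± 39.6 in PVR and 39.0 ± 8.70 in Normal), Camk2d (1227 ± 171 in PVR and 797 ± 43.8 in Normal) and Camkk2 (242 ± 1.91 in PVR and 140.2 ± 14.9 in Normal) had the smallest p-values. All of these counts are read beside 17.9% higher and 12.9% lower among all genes, and list medians of log2 change ran from 0.014 to 0.61, beside -0.017 over all genes. The macrophage markers rose in the same libraries, and their part was not tested.

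**Figure D4:**
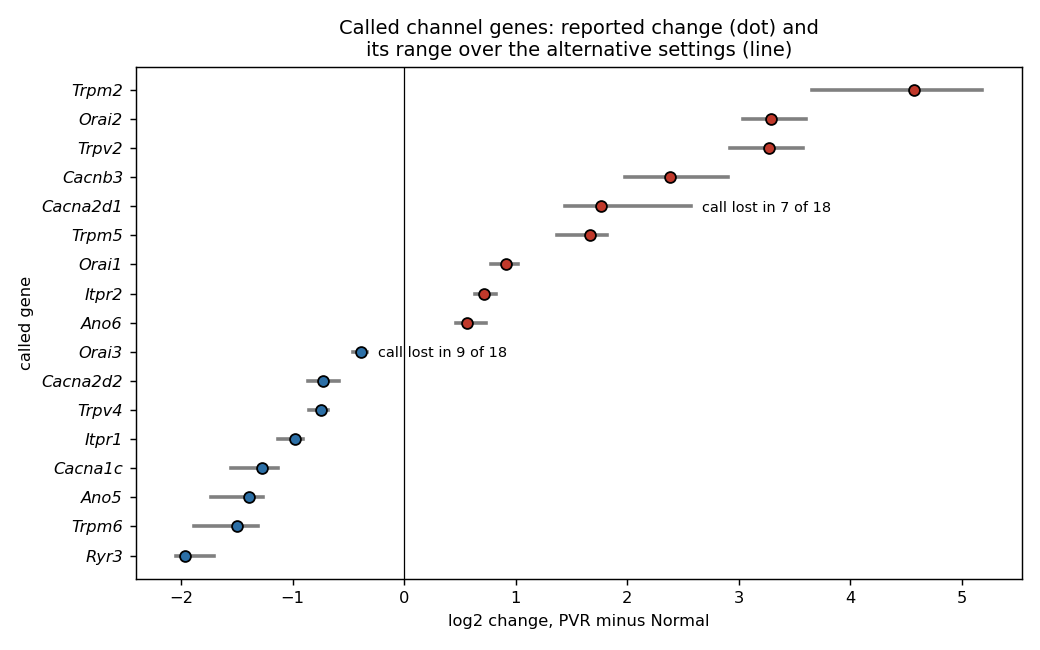
Log2 change of the 17 called genes (dots) and its range over 18 alternative settings (lines). The ranges of all 17 stay on one side of 0, and calls were lost for Cacna2d1 in 7 and Orai3 in 9 of the 18 settings.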

How the data were processed

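RNA of primary mouse RPE was measured in 3 PVR and 3 Normal libraries, grouped by sample title. Each deposited file gives a signal for every gene symbol, which by its values is the read count the authors scaled by a factor of the library (100% were whole multiples of 1 step within 0.001 reads, and the factors equalled recomputed median-ratio size factors). Build mm10 and DESeq2 are named, with no role, per the submitters' processing notes. PVR was compared with Normal by limma 3.58.1 under R 4.3.3, using log2 values after adding 1 and moderation that was robust and followed intensity, in 15766 genes passing filterByExpr of edgeR 4.0.16 on the recovered reads (minimum count 10). The quasi-likelihood test of edgeR on recovered reads called 4706 genes and DESeq2 1.42.0 called 4824, beside 4858 by limma. The test script was tried on simulated data. Deviations from the group means correlated weakly between samples with the same replicate number (0.206, 0.195 and 0.179 for numbers 1 to 3). Between unlike numbers the correlations ran from -0.137 to -0.0689. Deviations cancel within each group for every gene, so these values are not independent of those between like numbers. The titles state no pairing, and what libraries of the same number share is not given. Both samples of number 3 carry record numbers far from those of the others, and whether they were made separately is not given. The reported fit therefore has no block, and the fit with a block was an alternative. Coordinates and exon lengths are from GENCODE M21 (GRCm38, also called mm10). All member symbols matched. Of the members, 16 share exon bases with another gene, always on the opposite strand. In 26 rows a date stands in place of a symbol (0.102% of reads), and these were kept as genes. Named genes were every called member, the leading member of each family, a fixed set, and up to 3 called genes per list; other members named were chosen after their values were seen. The members and lists were chosen with earlier results of these data known.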

Additional observations from a re-analysis of the deposited data

How the results depend on the processing

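Over 18 alternatives (pseudocount, filter, scaling, test, moderation, replicate block and left-out libraries) the number of genes called ran from 3566 to 5328, beside 4858. Members called higher numbered 8 to 13, beside 9, and members called lower 7 to 10, beside 8. Leaving out 1 library at a time gave 3566 to 4775 genes, 8 to 10 members higher and 7 to 8 lower. Of the 17 called members 15 kept their call in each alternative, and Cacna2d1 and Orai3 did not. With the replicate number as a block 10 members were higher and 10 lower, and apart from Ano10, Best2 and Trpc1 it changed no other call. No called member changed sign. The sign turned for Best1 without PVR replicate 2, with log2 changes of -0.078 to 0.66 when 1 library was left out. It turned for Stim2 without Normal replicate 3 (range -0.13 to 0.064) and with replicates 1 and 2 only (0.052), and for Stim1 without Normal replicate 3 and without PVR replicate 2 (0.0075; range -0.13 to 0.015). The cause was not tested. Low depth kept 18 members out of the reported test, and 4 of them were called higher without the filter.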
